A study of Mus musculus with 7 samples.

Results

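Myc and Lin28 growth regulators are 8 genes that set how fast early cells grow and how long they stay undifferentiated. The members were taken by name: Myc, Mycn and Mycl1, the Myc transcription factors, Lin28a and Lin28b, the RNA-binding proteins that block maturation of the let-7 microRNAs, Trim71, a ubiquitin ligase and translational repressor of embryonic cells, and Hmga1 and Hmga2, architectural chromatin proteins. All 8 were found among the 31498 genes counted. The rule for membership uses names and no measured value, though the genes were proposed with earlier results of these data known. In mm9 they lie as Myc at chr15:61816946-61821929, Mycn at chr12:12942902-12948720, Mycl1 at chr4:122672895-122679728, Lin28a at chr4:133559245-133574756, Lin28b at chr10:45096426-45206201, Trim71 at chr9:114420393-114473487, Hmga1 at chr17:27693565-27700619 and Hmga2 at chr10:119798331-119913525. RNA came from the F123 mouse embryonic stem cell line, a hybrid of Mus musculus castaneus (CAST) and S129/SvJae (129), in 4 states of a distal enhancer of Sox2. These were wild type (CAST+/129+), the enhancer deleted on the 129 copy (CAST+/129-), deleted on the CAST copy (CAST-/129+), and deleted on both (CAST-/129-). Each was sequenced as 1 library, and each deletion line was 1 CRISPR-derived clone, so a genotype and a clone cannot be told apart and no difference below has a test across replicates. Histone marks were measured in 1 library each: H3K4me3 and H3K27ac in F123 and H3K27ac in J1, another mouse embryonic stem cell line, all without an enhancer deletion.

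Myc proteins bind DNA as partners of Max and raise genes of ribosome production, metabolism and division, while the Mxd proteins occupy the same partner and act against them. Let-7 is a family of microRNAs that accumulates as cells differentiate and lowers growth genes, among them Lin28a, Lin28b, Trim71, Hmga2 and Myc genes. Lin28 proteins bind the let-7 precursor and recruit enzymes that tail and destroy it, which makes a loop in which each side holds down the other. Trim71 was discovered as a let-7 target in worms. Hmga2 is abundant in embryonic tissues and scarce in most adult ones.

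Let-7 recognises its targets through the seed, bases 2 to 8 of the mature strand, which is shown in capitals for 4 of the 11 family members in RefSeq (build GRCm38.p6).

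mmu-let-7a-5p: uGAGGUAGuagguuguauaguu
mmu-let-7g-5p: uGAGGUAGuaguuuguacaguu
mmu-miR-98-5p: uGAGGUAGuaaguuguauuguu
mmu-let-7j: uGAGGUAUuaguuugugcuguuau

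In 10 of the 11 the seed was the same, and let-7j was the exception. The site that pairs with the shared seed, CTACCTC, was looked for in the longest annotated 3′ UTR of every protein-coding gene (GENCODE M1, build mm9). It occurred in 8.80% of 20007 such UTRs and in those of 5 of the 8 genes, 13 times in all. The Lin28b and Hmga2 UTRs held 4 sites each, Lin28a and Trim71 2 each and Hmga1 1. Of 3′ UTRs within 20% of the same length, 0.296% held as many as Lin28b, 0.152% as many as Hmga2, 0.773% as many as Trim71, 2.40% as many as Lin28a and 9.29% at least 1, as Hmga1 did. None was present in the UTRs of Myc (466 bases), Mycn (910) or Mycl1 (1970), which says only that these letters are absent from these windows. The 6 sites followed by an A are shown with the Hmga1 site, 5′ to 3′ on the transcript strand and with the site in capitals.

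Lin28a, chr4:133561104-133561126: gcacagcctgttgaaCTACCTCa
Lin28a, chr4:133560466-133560488: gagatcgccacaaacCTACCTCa
Lin28b, chr10:45100828-45100850: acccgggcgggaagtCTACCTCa
Trim71, chr9:114421590-114421612: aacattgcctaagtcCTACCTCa
Trim71, chr9:114421494-114421516: agtgataatttctatCTACCTCa
Hmga2, chr10:119801280-119801302: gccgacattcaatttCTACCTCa
Hmga1, chr17:27700222-27700244: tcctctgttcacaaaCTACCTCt

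All of these lie on the minus strand but the Hmga1 site, which is on the plus strand. Mature let-7 RNA was not measured here, since the libraries were made from polyadenylated RNA.

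The RNA libraries held between 5831179 (CAST-/129-) and 24848413 (wild type) distinct alignments on genes, and the 8 genes had between 87 and 9933 each. Levels are given as FPKM, the alignments on a gene scaled to its exon length and to the alignments on all genes, and the range in brackets after a value is the 95% Poisson interval of its count, which covers counting error only. Sox2 is the gene that the study assigns to the deleted distal enhancer. Its RNA stood at 46.9% of the wild type level in CAST+/129-, 41.8% in CAST-/129+ and 4.23% in CAST-/129-, in the order of the labels. Embryonic stem cell markers were present throughout: the 13 genes of that list summed to 1936 FPKM in wild type and to 1726, 1636 and 1155 in CAST+/129-, CAST-/129+ and CAST-/129-, and 6 of the 13 were past 3-fold downward in the last. Dppa3 was past it upward in all 3, at 6.86 FPKM in wild type and 89.4, 108 and 31.1. Markers of other cells differed between the libraries as well. The 24 fibroblast markers summed to 340 FPKM in wild type and to 387, 415 and 1331, the 12 measured trophectoderm markers to 53.3 and to 447, 692 and 644, the 10 primitive endoderm markers to 446 and to 223, 300.0 and 449, the 9 primitive streak markers to 5.28 and to 24.1, 91.9 and 139, and the 6 measured neural markers to 12.8 and to 41.4, 33.2 and 49.2. Of the 24 fibroblast markers, 4, 3 and 15 were past 3-fold upward in CAST+/129-, CAST-/129+ and CAST-/129-, and 1 was past it downward in each. Counting intervals lay above wild type for 19, 18 and 23 of them and below for 4, 4 and 1, so the sums of the single-allele lines hide markers that differ in both directions. The same holds for primitive endoderm in CAST-/129-, where 6 of the 10 markers lay below wild type and 3 above, Gata6 at 42.9 FPKM in wild type and 4.51 there and Col4a1 at 106 and 171. The collagen Col1a1 stood at 3.48 FPKM in wild type and 39.0, 38.9 and 174, and Col1a2 at 1.14 and 11.9, 13.6 and 53.4. Dcn was at 0.0623 and 1.74, 1.36 and 30.3, Postn at 0.0616 and 1.55, 1.66 and 9.71, and Prrx1 at 0.0836 and 1.03, 1.07 and 7.72. Others were lower in the single-allele lines: Fn1 was at 191 and 110, 104 and 210, Thy1 at 11.4 and 5.69, 6.28 and 27.7, and Pdgfra at 22.6 and 1.596, 2.55 and 4.48. The deletion clones were recovered on embryonic fibroblast feeders, and cells were passaged on feeder-free plates before harvest. In bulk RNA fewer cells of a type and less RNA per cell cannot be told apart, and the part of other cells in the values below was not tested.

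In wild type cells the 8 genes spanned from 2.23 FPKM (1.95 to 2.54) for Mycl1 to 201 FPKM (197 to 205) for Hmga1. Between them came Lin28b at 5.59, Myc at 20.7, Mycn at 26.5, Lin28a at 39.3, Hmga2 at 53.4 (52.3 to 54.5) and Trim71 at 54.0 (52.7 to 55.2). Hmga2 and Trim71 did not differ beyond their counting intervals, while every other neighbouring pair did. In CAST-/129- the order by FPKM was Lin28b, Mycl1, Hmga2, Myc, Trim71, Mycn, Lin28a and Hmga1. There Lin28b and Mycl1, Hmga2 and Myc, and Trim71 and Mycn had overlapping intervals. Orders between genes thus rest on annotated exon lengths, which the counting intervals do not cover.

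**Figure D1:**
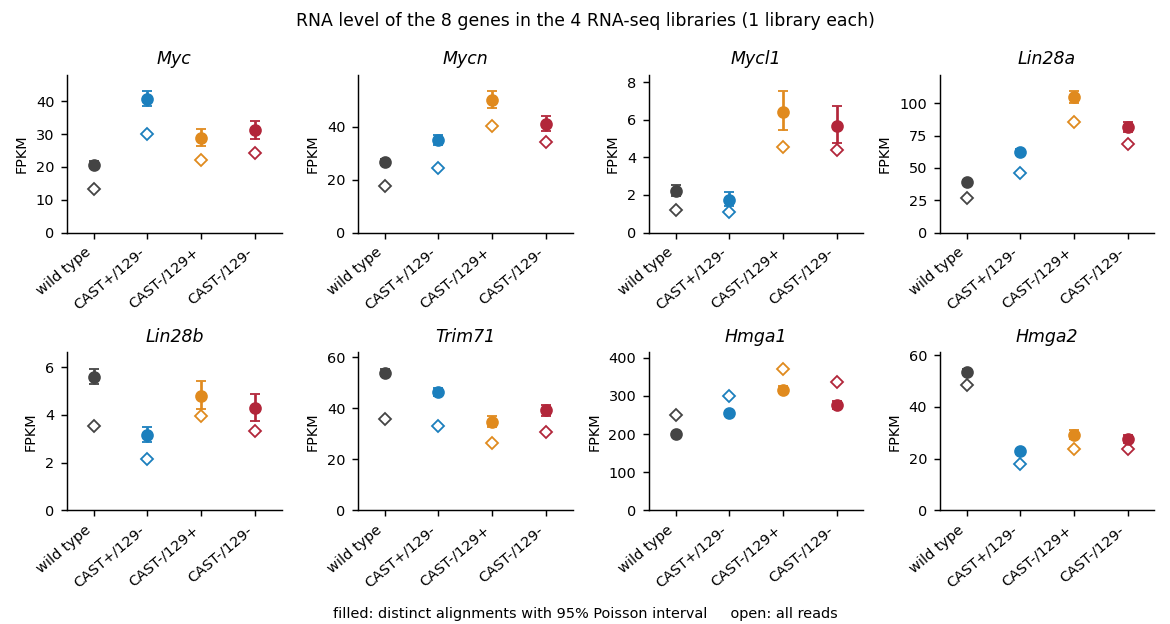
RNA level (FPKM, linear axis from 0) of the 8 genes in the 4 libraries, with distinct alignments as filled points (bars, 95% Poisson interval) and all reads as open diamonds. Myc, Mycn, Lin28a and Hmga1 lie above wild type in all 3 deletion libraries, Trim71 and Hmga2 below it, and Mycl1 lies above it only where the CAST copy was deleted.

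The study called a gene changed when FPKM plus 4 differed 3-fold. By that rule 0 of the 8 genes were called in any of the 3 comparisons with wild type, where 0.321% of all genes were called higher and 0.305% lower in CAST+/129-, 0.473% and 0.33% in CAST-/129+, and 0.819% and 0.511% in CAST-/129-. Among genes with a mean of at least 1 FPKM over the pair, as all 8 have, the shares were 0.741% and 0.704%, 1.08% and 0.753%, and 1.84% and 1.15%. At 2-fold, Hmga2 was past the mark in CAST+/129- and Lin28a in CAST-/129+. By distinct alignments on coding bases alone Hmga2 was not (log2 difference -0.56), though by reads these bases stood at 39.5% of wild type. Of all genes 0.905% were higher and 1.27% lower by 2-fold in CAST+/129-, 1.22% and 1.53% in CAST-/129+, and 2.0% and 1.92% in CAST-/129-. Of genes with at least 1 FPKM the shares were 2.09% and 2.94%, 2.78% and 3.5%, and 4.5% and 4.31%. The 3 comparisons share the wild type library, so an error in it would enter all of them alike. Counting intervals lay above the wild type level for 4, 5 and 5 of the 8 genes in CAST+/129-, CAST-/129+ and CAST-/129-, and below it for 4, 3 and 3. Among the 13996 genes with at least 100 counts over the 4 libraries, 34.2%, 30.7% and 31.3% lay above and 41.8%, 41.5% and 42.7% below, so an interval that misses the wild type level is common at this depth and is no call.

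Myc, the founding member of its family and a regulator of ribosome and metabolic genes, was highest where the 129 copy of the enhancer was deleted. It stood at 20.7 FPKM (19.6 to 21.8) for wild type, 40.8 (38.6 to 43.0) for CAST+/129-, 28.9 (26.3 to 31.6) for CAST-/129+ and 31.2 (28.5 to 34.1) for CAST-/129-. The 3 deletion libraries lay at 197%, 140% and 151% of wild type, all outside the wild type interval, and CAST-/129+ and CAST-/129- overlapped each other. On the log2 scale of FPKM plus 4 these were differences of 0.86, 0.41 and 0.51. The coding part gave 210%, 133% and 156%, the 5′ UTR 194%, 142% and 184% and the 3′ UTR 158%, 161% and 116% (89.0% to 149%), so that all parts lay above wild type, the last with an interval that reaches below it.

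Mycn, the Myc gene best known from neural and early embryonic tissue, had its highest level in the other single-allele line. It measured 26.5 FPKM (25.4 to 27.6) for wild type, 35.0 (33.2 to 36.8) for CAST+/129-, 50.04 (47.0 to 53.2) for CAST-/129+ and 41.1 (38.3 to 44.1) for CAST-/129-. The intervals of the 4 libraries did not overlap, and the ratios to wild type were 132%, 189% and 155%. Directly against each other, Mycn in CAST-/129+ was at 143% (132% to 155%) of its level in CAST+/129-, whereas Myc was at 70.8% (63.6% to 78.6%).

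Mycl1, the least abundant of the Myc genes, lay on opposite sides of wild type in the 2 single-allele lines. By distinct alignments it was the only member to do so, and by reads Lin28b did too. The share of all genes that do so was not counted. Mycl1 counts were 224 for wild type, 87 for CAST+/129-, 157 for CAST-/129+ and 134 for CAST-/129-. These gave 2.23, 1.73, 6.42 and 5.69 FPKM. CAST+/129- was at 77.5% (59.8% to 99.7%) of wild type, barely outside it, and CAST-/129+ and CAST-/129- were at 287% (233% to 354%) and 255% (204% to 317%). Because 4 is added to these low values, the log2 differences were only -0.12, 0.74 and 0.64. The coding part alone, with 69, 28, 26 and 54 counts, gave 80.9%, 155% (94.5% to 246%) and 333% (229% to 483%), and the 3′ UTR 71.4%, 338% and 210%, so the order of CAST-/129+ and CAST-/129- differed between the parts of the transcript.

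Summed over the family, Myc RNA was 49.4 FPKM in wild type and 77.5, 85.3 and 78.0 in CAST+/129-, CAST-/129+ and CAST-/129-. The make-up of the sum differed too. Myc gave 41.8% of it for wild type, 52.6% for CAST+/129-, 33.8% for CAST-/129+ and 39.99% for CAST-/129-, and Mycn the larger share in every library but CAST+/129-. In that library the share of Mycn was 45.2%.

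Lin28a, which marks pluripotent cells and blocks let-7 maturation, had the largest upward difference of the 8 on the log2 scale. It stood at 39.3 FPKM (38.0 to 40.7) for wild type, 62.6 (60.3 to 65.0) for CAST+/129-, 105 (100.4 to 109) for CAST-/129+ and 81.6 (77.7 to 85.6) for CAST-/129-. None of these intervals overlapped, with ratios of 159%, 266% and 207% to wild type and log2 differences of 0.62, 1.33 and 0.98. The coding part gave 202%, 271% and 276% and the 3′ UTR, where both let-7 sites lie, 153%, 267% and 195%. Of its 50-base exon words, 11.3% occur a second time in the genome, so a minor part of its counts may come from a copy.

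Lin28b, the second Lin28 gene, active in several tumours, was lower in the same libraries by distinct alignments. It measured 5.59 FPKM (5.28 to 5.91) for wild type, 3.17 (2.85 to 3.52) for CAST+/129-, 4.81 (4.24 to 5.42) for CAST-/129+ and 4.28 (3.74 to 4.87) for CAST-/129-. The clear difference was that of CAST+/129-, at 56.7% (50.3% to 63.8%) of wild type. CAST-/129+ was at 86.0% (75.03% to 98.3%), and when all reads were counted in place of distinct alignments it was at 112%, so its direction was not settled. CAST-/129- was at 76.5% (66.1% to 88.2%) by distinct alignments and at 93.2% by reads. Lin28a thus made up 87.6% of the summed Lin28 FPKM in wild type and 95.2%, 95.6% and 95.02% in the 3 deletion libraries. These shares depend on exon length. Of the 9065 exon bases of Lin28b, 3130 held at most 10 alignments in any library.

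**Figure D2:**
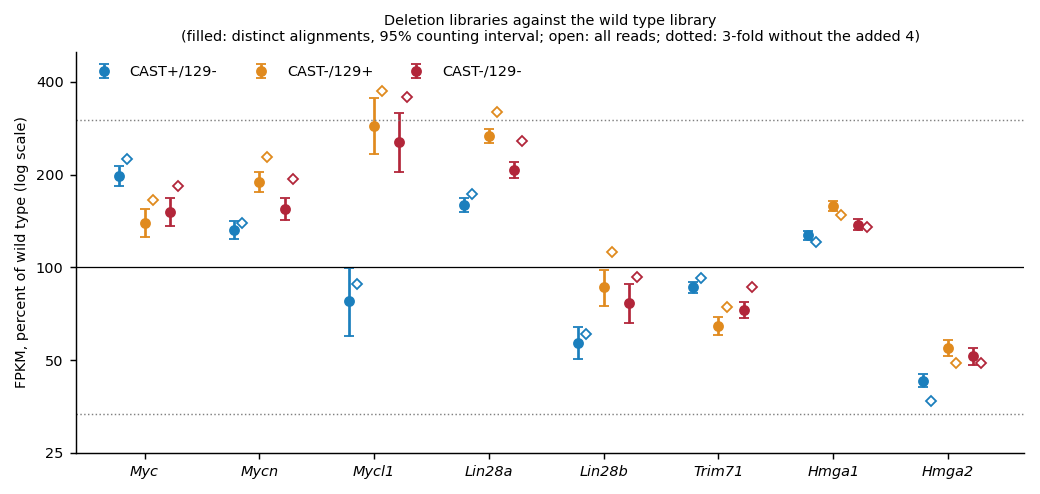
Level in each deletion library as a percent of wild type (log axis), by gene; filled points use distinct alignments with the 95% counting interval, open diamonds use all reads. Every Lin28a point lies above 150% and every Hmga2 point below 60%, and Lin28b in CAST-/129+ is the case where the points fall on both sides of 100%.

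Trim71, which the embryonic stem cell uses to repress differentiation mRNAs, was lower in all 3 deletion libraries. Its values were 54.0 FPKM for wild type, 46.5 (44.8 to 48.1) for CAST+/129-, 34.8 (32.8 to 36.9) for CAST-/129+ and 39.2 (37.0 to 41.5) for CAST-/129-. These were 86.1%, 64.5% and 72.6% of wild type. Counted as reads, the ratios were 92.3%, 74.3% and 86.1%. RNA on the same strand ran on past the annotated end of Trim71: in the next 8 kb, which hold no other annotated gene on that strand, there were 7706 alignments for wild type, 3026 for CAST+/129-, 1317 for CAST-/129+ and 1266 for CAST-/129-. That stretch stood at 78.3%, 70.1% and 70.0% of wild type, and any let-7 site in it lies outside the UTR searched above.

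Hmga1, an AT-hook protein that is abundant in fast-dividing cells, was above at least 99.5% of protein-coding genes in each library. It stood at 201 FPKM for wild type, 255 (249 to 261) for CAST+/129-, 316 (307 to 327) for CAST-/129+ and 276 (267 to 286) for CAST-/129-, or 127%, 158% and 137% of wild type. These values are uncertain, since 69.2% of its 50-base exon words occur more than once in the genome.

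Hmga2, the other AT-hook gene and a classic let-7 target, had the largest downward difference of the 8. It measured 53.4 FPKM (52.3 to 54.5) for wild type, 22.9 (21.9 to 23.9) for CAST+/129-, 29.2 (27.6 to 30.9) for CAST-/129+ and 27.5 (25.9 to 29.2) for CAST-/129-. The deletion libraries all lay below the wild type interval, at 42.8%, 54.7% and 51.5%, and of these CAST-/129+ and CAST-/129- overlapped while CAST+/129- was lower. The log2 differences were -1.10, -0.79 and -0.86. Of its 50-base exon words 15.1% occur more than once in the genome, some up to 51 times.

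Parts of the Hmga2 locus differed in size of effect. The 3′ UTR, with its 4 let-7 sites, gave 41.1%, 54.7% and 50.02% of wild type in CAST+/129-, CAST-/129+ and CAST-/129-, and the 5′ UTR 30.5%, 18.4% and 32.1%. The coding part gave 70.0%, 90.5% and 83.9% by distinct alignments but 39.5%, 41.3% and 44.5% by reads, and there the wild type library held 5.24 reads per distinct alignment against 2.02, 1.497 and 1.56. Same-strand RNA in the 8 kb after the annotated end numbered 268 alignments in wild type and 19, 8 and 4 in the deletion libraries, or 14.1% (8.38% to 22.5%), 12.2% (5.23% to 24.5%) and 6.36% (1.72% to 16.5%) of its rate. In the 8 kb before the start it numbered 302 and then 42, 34 and 11, which was 27.7% (19.6% to 38.4%), 46.2% (31.4% to 65.9%) and 15.5% (7.67% to 28.2%). These flanking windows were counted for all 8 genes, and for the other genes but Trim71 they held at most 63 alignments in any library. With Hmga2 lower, Hmga1 made up 78.99% of the summed Hmga FPKM in wild type and 91.8%, 91.5% and 90.9% in the deletion libraries. These shares take Hmga2 over all its annotated exon bases, including the 2962 that held no alignment.

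H3K4me3 marks the starts of transcribed and poised genes, and H3K27ac marks active promoters and enhancers. Counts within 2 kb of the start that most transcripts share were set over the mean of all autosomes in the same library. H3K4me3 was at least 5-fold at 7 of the 8 genes in F123, H3K27ac at 6 in F123 and at 5 in J1, where 44.3%, 27% and 20.9% of 22350 protein-coding promoters were. The shares differed with the wild type RNA level. They were 58.9%, 28.1% and 20.7% from 1 to 10 FPKM, where Mycl1 and Lin28b lie. From 10 to 50 FPKM they were 85.4%, 59.2% and 45.2%, and from 50 FPKM on 84.6%, 75.7% and 63.0%. Against genes of like level the 8 thus stood out less.

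**Figure D3:**
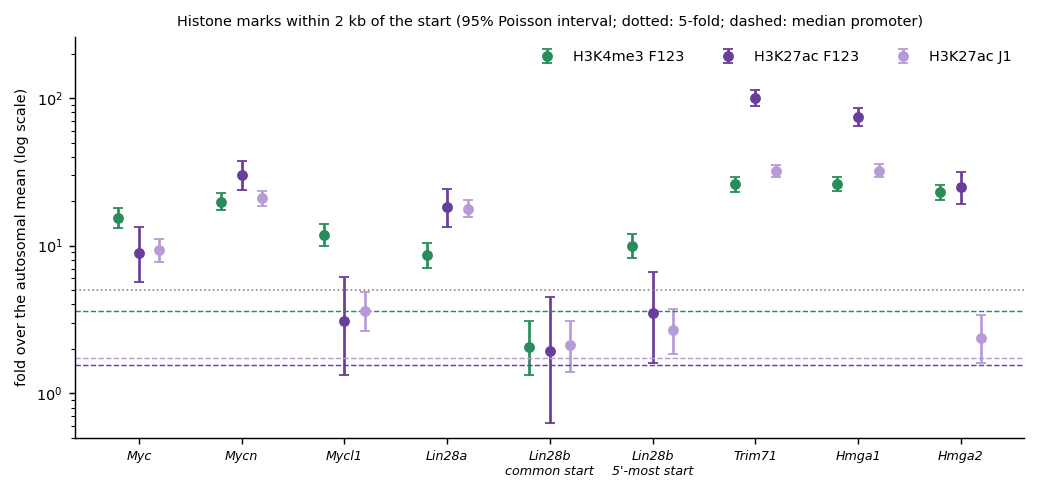
Histone mark counts within 2 kb of the start, as fold over the autosomal mean (log axis; bars, 95% Poisson interval of the count); the dotted line is 5-fold and dashed lines are the median over all protein-coding promoters. Trim71 and Hmga1 carry most H3K27ac in both lines, and Hmga2 carries 24.8-fold in F123 and 2.36-fold in J1.

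Trim71 and Hmga1 had the strongest marks. H3K27ac at Trim71 was 100.006-fold (88.2 to 113) in F123 and 32.2-fold (29.1 to 35.4) in J1, and at Hmga1 74.8-fold (64.6 to 86.1) and 32.2-fold (29.2 to 35.5). The stretch of 500-base bins at least 5-fold, with single bins under that mark bridged, at Trim71 was 31.5 kb long in F123 and 14.5 kb in J1, the longest of the 8 in both. The F123 library averaged 0.645 alignments per kb and that of J1 3.17. A bin thus passed with 2 counts in F123 and with 8 in J1, so lengths do not compare between the lines. Mycn came next, at 30.2-fold (23.9 to 37.7) and 21.0-fold (18.5 to 23.6), with stretches of 7.0 and 9.5 kb. Myc was lower within 2 kb, at 8.92-fold (5.65 to 13.4) and 9.30-fold (7.70 to 11.1), and its interval in F123 lay below that of Mycn. Past that window, the bins at 2.25 and 2.75 kb after the Myc start held 31.0- and 46.5-fold in F123. In J1 the same bins held 8.20- and 6.94-fold. Lin28a had like fold values in the F123 and J1 libraries, at 18.2-fold (13.4 to 24.2) and 17.8-fold (15.6 to 20.3). On the log2 scale of fold plus 1 its F123 to J1 ratio was 0.03. The median was 0.71 over the 5508 promoters with a mean of at least 5-fold over both lines. Within 2 kb of its start Mycl1 combined H3K4me3 at 11.8-fold (9.93 to 14.0) with little H3K27ac, 3.10-fold (1.34 to 6.11) in F123 and 3.63-fold (2.65 to 4.84) in J1. Farther inside the gene there was more H3K27ac. The bin at 5.25 kb held 34.1-fold in F123 (11 counts) and 21.4-fold in J1 (34 counts).

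The Hmga2 promoter stood out between the lines. H3K27ac there was 24.8-fold (19.1 to 31.7) over the mean in F123, from 64 counts, and 2.36-fold (1.595 to 3.38) in J1, from 30 counts where 12.7 were the mean. The F123 value was 10.5 times (6.70 to 16.8) the J1 value. On the log2 scale of fold plus 1 its ratio was 2.94, and over all 22350 protein-coding promoters, whose median was -0.01, 4 were as high, Hmga2 among them. Of the 5508 with a mean of at least 5-fold over both lines the median was 0.71, and whether this choice favours a line was not tested. The other 7 genes had ratios from 0.855 for Mycl1 to 3.11 (2.65 to 3.64) for Trim71. H3K4me3 at Hmga2 in F123 was 23.0-fold (20.3 to 25.9). Each line had 1 library, of 1576875 distinct alignments in F123 and 7743500 in J1, and no RNA of J1 was analysed here, so line, library and culture cannot be told apart.

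Lin28b lacked strong marks at its common start, chr10:45190007 on the minus strand, with 2.07-fold H3K4me3 (1.33 to 3.08), 1.94-fold H3K27ac in F123 and 2.13-fold in J1. An alternative start annotated farther upstream, chr10:45206201, had H3K4me3 at 9.93-fold (8.20 to 11.9) and H3K27ac at 3.49-fold (1.595 to 6.62) in F123 and 2.68-fold (1.86 to 3.75) in J1. The H3K27ac intervals of the 2 starts overlapped in both lines, and those of H3K4me3 did not. The sequences at the 2 starts are shown from 250 bases before the start to 50 bases from it on, read from mm9 on the minus strand, with CpG dinucleotides in capitals.

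Lin28b common start, chr10:45189958-45190257: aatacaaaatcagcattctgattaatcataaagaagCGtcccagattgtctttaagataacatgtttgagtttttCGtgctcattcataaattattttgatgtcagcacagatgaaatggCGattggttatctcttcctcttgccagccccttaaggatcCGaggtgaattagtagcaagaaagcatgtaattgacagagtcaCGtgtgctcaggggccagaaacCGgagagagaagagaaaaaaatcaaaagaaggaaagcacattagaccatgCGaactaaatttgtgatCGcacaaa
Lin28b upstream start, chr10:45206152-45206451: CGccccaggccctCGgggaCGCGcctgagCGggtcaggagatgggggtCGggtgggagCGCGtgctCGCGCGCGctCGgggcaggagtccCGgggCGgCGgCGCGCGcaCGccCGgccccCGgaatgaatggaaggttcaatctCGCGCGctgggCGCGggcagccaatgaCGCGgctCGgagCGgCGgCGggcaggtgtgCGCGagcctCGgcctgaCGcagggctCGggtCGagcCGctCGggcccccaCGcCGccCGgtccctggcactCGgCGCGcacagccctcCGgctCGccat

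The common start held 8 CpGs and 39.0% G and C, the upstream start 49 CpGs and 78.3%, and the median over all protein-coding promoters was 12 CpGs. The upstream window had more than 98.7% of them. The windows of the other 7 genes held from 8 CpGs at Lin28a to 38 at Hmga1. Of short motifs searched on both strands, the E-box CACGTG, bound by Myc-Max, was present in the Lin28b common window alone among the 8 genes (7.75% of all promoters). The Sox core CATTGT was present in that of Lin28a (10.5%), the octamer ATGCAAAT in that of Hmga1 (1.76%) and TATAAA in that of Myc (13.4%). A match describes the letters and does not show binding.

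RNA between the 2 Lin28b starts was set against the rest of the gene, a comparison chosen after its values were seen. The 16194 bases between the starts hold no other annotated gene and, apart from 3 exon blocks, are intron of the transcripts that begin upstream. Sense RNA there amounted to 852 alignments for wild type, 138 for CAST+/129-, 88 for CAST-/129+ and 63 for CAST-/129-, which were 32.3% (26.8% to 38.7%), 42.4% (33.6% to 52.8%) and 31.5% (23.996% to 40.7%) of the wild type rate. The exon blocks from the common start on, with 1216, 342, 262 and 225 alignments, stood at 56.1% (49.6% to 63.3%), 88.4% (77.0% to 101%) and 78.8% (68.1% to 91.0%). Over the whole stretch, introns included, its interval in each deletion library lay wholly below that of the exon blocks. The 3 annotated exon blocks of the stretch alone held 43, 16, 2 and 1 alignments, which in the deletion libraries were 74.2% (39.0% to 134%), 19.1% (2.24% to 73.2%) and 9.91% (0.245% to 58.2%) of the wild type rate. For these blocks CAST+/129- was thus not below wild type beyond counting error, and its interval overlapped that of the blocks from the common start on.

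**Figure D4:**
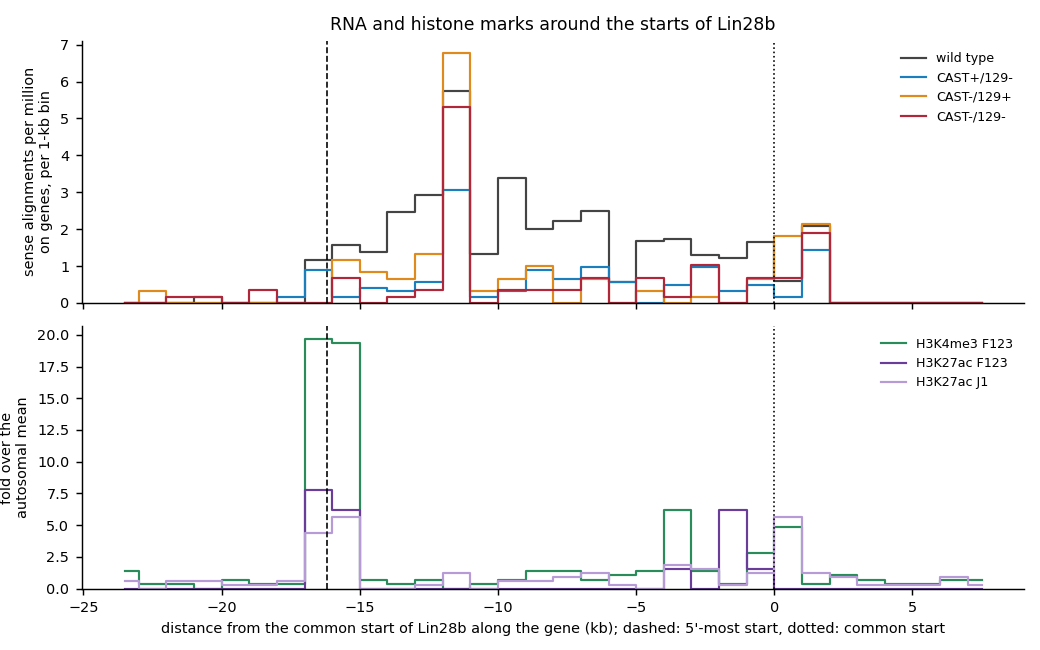
Sense RNA (top, alignments scaled to those on all genes) and histone marks (bottom, fold over the autosomal mean) in 1-kb bins around the Lin28b common start at 0, with the upstream start at the dashed line. Wild type RNA rises at the upstream start, where H3K4me3 is highest, and lies above all 3 deletion libraries in 15 of the 16 bins between the starts.

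The stretch was not uniform. Its fullest bin, chr10:45201008-45202007, held 143, 38, 41 and 31 alignments and stood at 53.0%, 118% and 92.4% of wild type, near the exon blocks. Without that bin the stretch was at 28.1% (22.6% to 34.7%), 27.2% (19.8% to 36.6%) and 19.2% (13.1% to 27.4%). The deposited RNA files hold few alignments in annotated introns, 5.70 to 7.45 times fewer per base than outside protein-coding genes, so the zeros in the introns of Myc, Mycn, Mycl1, Lin28a and Trim71, and in those of Lin28b after the common start, are no measurement. Within Lin28b, introns held alignments between the starts only.

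The wider pathways were read from 6 lists of 91 genes, all of which were found. By the 3-fold rule 3 of the 91 were called in CAST-/129-, 2 higher and 1 lower, beside 0.819% and 0.511% of all genes. Among genes with a mean of at least 1 FPKM over the pair the shares were 1.84% and 1.15%, so the count was near its background. With 10 added to FPKM in place of 4, only 1 of the 3 calls remained. All 3 were let-7 target genes. Ccnd2, a D-type cyclin, stood at 1.28, 6.88, 5.50 and 42.1 FPKM in wild type, CAST+/129-, CAST-/129+ and CAST-/129-, a log2 difference of 3.12 in the last. Ccnd1, a second D-type cyclin, was at 22.1, 21.7, 25.6 and 75.7 FPKM, with 98.0% (90.9% to 106%) and 116% (105% to 127%) of wild type in the single-allele lines and a log2 difference of 1.61 in CAST-/129-. Igf2bp2, which binds the mRNA of an insulin-like growth factor, went the other way, from 46.3 to 6.52, 15.5 and 10.4 FPKM, or -2.26, -1.37 and -1.81. E2f2, an activating E2F factor, was at 11.8, 5.41, 2.57 and 3.30 FPKM. Over the 20 genes of this list the median log2 difference was -0.11, 0.06 and -0.03, near that of all genes at -0.04, -0.07 and -0.08, so the list as a group had no common direction. The D-type cyclins are expressed in fibroblasts too, and the fibroblast markers given above were highest in the same library. Their part was not tested.

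Genes that Myc is known to raise were higher in most cases. Intervals lay above wild type for 21, 19 and 19 of the 24 genes in the 3 deletion libraries, in the order used above, and below it for 3, 2 and 3, beside 34.2%, 30.7% and 31.3% above among all genes counted. The median log2 differences were 0.41, 0.57 and 0.34. None passed 3-fold. Many of these genes are abundant, and abundant genes as a whole leaned upward: the 400 protein-coding genes with at least 100 FPKM in wild type had medians of 0.26, 0.32 and 0.19, with 74.25%, 74% and 63.75% of them higher than wild type, and the 917 from 50 to 100 FPKM 0.16, 0.13 and 0.01. These levels use distinct alignments, and wild type held 2.58 reads for each, against 2.02, 2.03 and 1.84 in the deletion libraries. The part of merged reads in this lean was not tested. Ldha, the lactate dehydrogenase subunit, stood at 92.4, 172, 236 and 221 FPKM and had the largest difference. Srm, the spermidine synthase, was at 66.3, 121, 143 and 103, and Phb, a mitochondrial inner membrane protein, at 49.7, 87.2, 85.7 and 79.1. Shmt2, the mitochondrial serine hydroxymethyltransferase, was the main exception, with 107, 62.6, 53.6 and 55.7 FPKM.

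**Figure D5:**
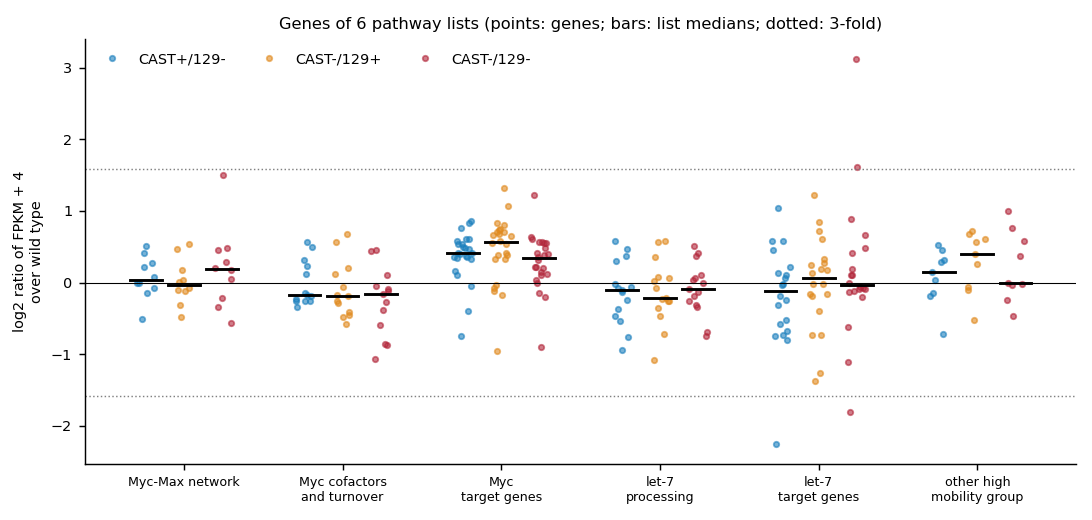
Log2 difference from wild type (FPKM plus 4) for every gene of the 6 lists, by deletion library; black bars are list medians and dotted lines 3-fold. Myc target genes have medians of 0.41, 0.57 and 0.34, and the points past 3-fold in CAST-/129- are the let-7 targets Ccnd2, Ccnd1 and Igf2bp2.

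The 10 genes of the Myc-Max network had medians of 0.04, -0.04 and 0.19. Max, the obligate partner, was at 39.7 FPKM in wild type and 58.3, 59.3 and 57.0 in the deletion libraries. Mxd4, which competes with Myc for Max, was at 1.45, 2.58, 3.53 and 11.4 FPKM, the largest difference of the list at 1.498 in CAST-/129-. Mxi1, of the same antagonist class, was lower, at 7.46, 4.06, 5.26 and 3.78, and Mlx, a Max-like factor, was at 21.4, 30.0, 24.9 and 30.7. Of 13 cofactors and turnover genes, 8 had an interval below wild type in each comparison, 7 of them in all 3, and 5, 4 and 3 had one above it, beside 41.8%, 41.5% and 42.7% of all genes counted that lay below, with medians of -0.18, -0.18 and -0.16. Usp28, a deubiquitinase that stabilises Myc, was at 40.5, 35.3, 35.2 and 17.3 FPKM. Zbtb17, the Miz-1 partner through which Myc represses, was at 15.9, 13.9, 12.4 and 6.90, Wdr5, a chromatin cofactor, at 67.8, 55.9, 44.2 and 35.7, and the acetyltransferase Kat2a at 53.0, 43.8, 37.0 and 33.8. These 4 had the largest differences in CAST-/129-. Of the 13, those with intervals above wild type in all 3 deletion libraries were the helicases Ruvbl1, at 54.5, 83.0, 89.3 and 76.1 FPKM, and Ruvbl2, at 57.8, 82.9, 87.2 and 79.8, and the ubiquitin ligase subunit Skp2, at 15.3, 20.0012, 18.2 and 16.8, all named after their values were seen.

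The let-7 processing machinery had medians of -0.11, -0.21 and -0.09 over 15 genes, and none passed 3-fold. Dis3l2, the exonuclease that degrades the tailed let-7 precursor bound by Lin28, was at 18.2, 9.09, 6.55 and 9.21 FPKM. Eif2c2, which encodes Argonaute 2, was at 54.9, 26.7, 31.9 and 32.5. Higher were Hnrnpa1, which binds the let-7a precursor, at 194, 252, 291 and 279 FPKM, and the Dicer partner Tarbp2 at 10.6, 16.2, 17.6 and 15.3. Of the 9 other high mobility group genes none passed 3-fold, with medians of 0.15, 0.39 and 0.00. Hmgn5, a nucleosome-binding protein, was at 20.5, 31.1, 33.3 and 44.8 FPKM, Hmgn1, of the same class, at 70.8, 98.6, 119 and 108, and Hmgn3 at 2.49, 1.68, 3.73 and 7.01.

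For the 2 members whose FPKM plus 4 spanned at least 2-fold over the libraries, Lin28a and Hmga2, the genes with the most similar pattern were found by the distance between centred log2 profiles of FPKM plus 4 over the 4 libraries, among 12850 protein-coding genes. Nearest to Lin28a were Serf1 (3.37, 7.14, 13.9 and 10.04 FPKM, distance 0.04), Arid3a (2.39, 5.57, 10.9 and 7.86, distance 0.08) and Bnipl (0.656, 2.72, 7.96 and 5.25, distance 0.09). Arid3a is also a member of the let-7 target list. Nearest to Hmga2 were Rara, a retinoic acid receptor, at 18.0, 6.69, 9.24 and 7.99 FPKM, Aldh2, an aldehyde dehydrogenase, at 54.2, 22.9, 30.8 and 29.5, and Prr5l at 4.94, 0.436, 1.36 and 1.21, with distances of 0.06 to 0.07. Within a distance of 0.25 there were 28 genes for Lin28a and 130 for Hmga2. Adding 4 shrinks the differences of low genes. Without the added 4, FPKM ratios between libraries are larger for Serf1, Arid3a and Bnipl than for Lin28a, and for Prr5l than for Hmga2. These genes thus count as close on this scale only. With 4 libraries a close profile is a description.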

How the data were processed

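The deposited tables are alignment lists on mm9, in which the authors merged identical alignments and wrote how many reads each stood for, as counts, 1 table per library. Per the labels and methods, strand-specific polyadenylated RNA was aligned with Novoalign and USeq and ChIP reads with Bowtie; versions are not given in the sources used here. Distinct alignments were counted on the sense strand by midpoint in exons of 1 gene (GENCODE M1, at least 200 bases), and FPKM was taken over alignments on genes. The study's rule (FPKM plus 4, 3-fold) gave the calls. Poisson and binomial intervals are exact, at 95% (SciPy 1.17.1), and cover counting error only. With 1 library per group no test was made. The intervals and the 3-fold rule were tested on simulated Poisson counts of known library size, which checks the computation only. The simulation held no merged reads and no spread between replicates. The assignment of alignments to genes was not tested. Marks used 5′ ends within 2 kb of the start, with no input subtracted. The labels name Abcam ab8580 for H3K4me3, and the methods another antibody. From each list the genes past 3-fold, or up to the 4 with the largest difference in CAST-/129-, are named, except that some results are not reported here. The members and lists were chosen with earlier results of these data known.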

Additional observations from a re-analysis of the deposited data

Results flagged for a closer look

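Mycl1 lay below wild type where the 129 copy of the enhancer was deleted (log2 difference -0.12) and above it where the CAST copy was deleted (0.74), and the counting intervals excluded the wild type level on both sides. The gap between the 2 single-allele lines, CAST-/129+ minus CAST+/129- on the log2 scale, was 0.86. Some of the 91 pathway genes also lay on opposite sides of wild type. Igf2bp3 (49.4% and 124.88% of wild type, gap 1.07), Arid3b (59.7% and 124.83%, gap 0.77) and Hmgn3 (67.6% and 149.78%, gap 0.44) were lower in CAST+/129- and higher in CAST-/129+. Mga (106% and 90.9%, gap -0.19) and Hmgb2 (111% and 92.8%, gap -0.25) were the reverse. How many of all genes lie on opposite sides was not counted. Of the 13996 genes counted, 34.2% lay above and 41.8% below wild type in CAST+/129-, and 30.7% and 41.5% in CAST-/129+. Opposite sides are thus no call for Mycl1 or for the pathway genes. With 1 library per genotype none of these differences was tested.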

How the results depend on the processing

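Of 24 log2 differences (8 genes in 3 comparisons), 23 kept their direction under the 9 alternatives that can change such a difference, and none passed 3-fold under them. The exception was Lin28b in CAST-/129+, -0.12 as reported, 0.077 when all reads were counted and 0.034 when reads were thinned before merging, an alternative chosen after seeing the data. The cause was not tested. Counts of genes past the threshold moved as follows. At 2-fold in place of 3-fold, the members called were 1 in CAST+/129-, 1 in CAST-/129+ and 0 in CAST-/129-, and the pathway genes called in CAST-/129- were 7 (4 higher, 3 lower), where 3 (2 and 1) were reported. Adding 10 in place of 4 left 1 pathway gene (1 higher, 0 lower), and counting both strands or coding bases alone left 1 higher. Thresholds at the promoters kept their counts within 1.5 times. Coding bases alone moved Hmga2 to -0.56, -0.19 and -0.33, which ends its 2-fold call in CAST+/129-. No paired analysis was possible because each group has 1 library and the labels give no replicate numbers, and leaving out a library leaves no group. Depth limits Mycl1 (87 to 224 counts), the Lin28b upstream exons (1 to 43) and the Hmga2 flanks in the deletion libraries (4 to 42).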
